A study of Homo sapiens with 12 samples.

Results

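Heat shock proteins and their cochaperones form the set described here, 67 of the 20050 protein-coding genes in the RefSeq table. Of these, 45 were taken by symbol (DNAJA, DNAJB or DNAJC followed by a digit, the J-domain genes). The other 22 were taken by name: the HSP90 genes HSP90AA1, HSP90AB1 and TRAP1, the HSP70 genes HSPA1A, HSPA1B, HSPA4, HSPA8, HSPA9, HSPA14 and HSPH1, the chaperonin pair HSPD1 and HSPE1, HSPB1, HSF1, STIP1, CDC37 and BAG1 to BAG6. The readthrough gene DNAJC25-GNG10 is counted among the J-domain genes.

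The study asked which mRNAs of pancreatic cancer cells may carry 1-methylguanosine (m1G), a methylated base known from tRNA. RNA with a poly(A) tail from PANC-1 cells, an established line of pancreatic ductal adenocarcinoma, was fragmented and precipitated with an anti-m1G antibody or kept as input. The 12 libraries came from control cells (WT control) and from cells in which the tRNA methyltransferase TRMT5 was knocked down with siRNA for 4 days, in 4 groups of 3: input and m1G-precipitated RNA of each. All were made from a single line, and the labels do not tell whether replicates were separate cultures. What was deposited are 2 peak lists that cover the series as a whole. No value below therefore belongs to one library or one condition, no error over replicates exists, and control and knockdown could not be compared. Library depth is unknown.

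In the MetDiff list each peak is a set of exon blocks with a false discovery rate (FDR) and a fold, read here as precipitate over input because of its place in a layout with no header; a fold of another contrast would change what every fold below means. In the MACS2 list each entry is a single base, the summit, with a −log10 q value that measures significance and not size. Both kinds of value are the authors' and serve only to describe and rank peaks within their list. Positions are GRCh38, counted from 1.

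Chaperones bind unfolded proteins and let them fold or be refolded. HSP70 proteins do so in cycles of ATP hydrolysis: J-domain proteins bring the substrate and start hydrolysis, nucleotide exchange factors such as the BAG proteins and HSPH1 release it, and STIP1 hands it on to HSP90, which matures kinases and receptors. HSF1 is the transcription factor that raises the mRNAs of many of these genes under stress, and tumour cells are known to rely on it and on HSP90.

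A gene was counted as having a peak when it was the only gene of any kind whose span overlapped the peak. By this rule 20 of the 67 genes had a MetDiff peak (29.9%), beside 18.4% of all protein-coding genes, and 14 had a summit (20.9%), beside 8.2%. Both lists named 12 of them (17.9%), beside 6.96% of all protein-coding genes. At least 1 kind of peak was found in 22 genes and neither kind in 45 (67.2%, beside 80.4% of all protein-coding genes). The background counts every protein-coding gene of RefSeq, and no expression level was analysed here. No test was run on these shares, and the set was chosen with earlier results of these data known.

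Among the 22 HSP, HSF1 and cochaperone genes taken by name, 10 had a MetDiff peak (45.5%), 11 a summit (50.0%) and 9 both (40.9%). Among the 45 J-domain genes, 10 had a MetDiff peak (22.2%), 3 a summit (6.67%) and 3 both (6.67%). The J-domain shares lay near those of all protein-coding genes, 18.4%, 8.2% and 6.96%, and so are no result about these genes. The shares of the 22 genes taken by name lay above those of all protein-coding genes. These 22 were picked with earlier results known, so their shares cannot be read as a trait of HSP and cochaperone genes. For 42 other genes of the chaperone network, left out of the set and counted below, the MetDiff share was 9.52% and the summit share 11.9%. The 22 genes held 14 MetDiff peaks and 24 summits, the 45 J-domain genes 24 MetDiff peaks and 4 summits. Within the J-domain genes the counts with a MetDiff peak were 1 of 4 DNAJA (25.0%), 5 of 12 DNAJB (41.7%) and 4 of 29 DNAJC genes (13.8%), the last below the 18.4% of all protein-coding genes. Whether these groups differ from each other or from all genes was not tested.

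Peaks of 3 genes reached the first transcribed bases that RefSeq annotates, and these bases are shown because m1G can only sit on a guanine. They are the first 30 bases of the mRNA, 5′ to 3′, from the RefSeq promoter windows of build GRCh38.p14, with every guanine in capitals. The BAG1 bases lie on the minus strand at chr9:33264679-33264708, those of DNAJB11 on the plus strand at chr3:186570720-186570749 and those of DNAJC8 on the minus strand at chr1:28233000-28233029.
BAG1: aGcttccatcGctGGGcGGtcaacaaGtGc
DNAJB11: actcccGGGaaGtGGaccGGcaGaaGaGGG
DNAJC8: aGaaGGGtcacGtGGtGGctGGGccGGGGa
The 30 bases hold 9 guanines in BAG1, 13 in DNAJB11 and 16 in DNAJC8. Over the first 50 bases the guanine share was 40.0% in BAG1, 38.0% in DNAJB11 and 48.0% in DNAJC8, and 38.0% in DNAJA3, whose 5′ peak began 37 bases after the annotated start. The median over all 15843 protein-coding genes with a window was 34.0%, over the 395 with a MetDiff peak in these 50 bases 42.0%, and over the 2659 with a peak elsewhere 38.0%. The lists do not tell which base of a peak, if any, is methylated.

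The highest fold of the set belonged to DNAJB11, a J-domain protein of the endoplasmic reticulum lumen that works with the HSP70 protein BiP. Its only MetDiff peak covered 201 bases, from 4 bases before the annotated start (chr3:186570716-186570916), and its fold was 28.0 at an FDR of 2.34e-06. A fold at least as high was listed for 49 of the 9585 MetDiff peaks (0.511%), and 38 of the 3687 protein-coding genes with a peak (1.03%) reached it. DNAJB11 had no summit. The other J-domain genes assigned here to this compartment had lower values or none: DNAJB12, in its membrane, had a peak of 2 exon blocks with a fold of 4.02. DNAJC10, a disulfide reductase of the lumen, had a peak with a fold of 4.57 that began 84 bases after its start, in a stretch shared with PDE1A and so not counted. DNAJB9, DNAJB14, DNAJC1 and DNAJC3 had no peak in either list.

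DNAJB2, a J-domain protein with ubiquitin-binding motifs that is best known from neurons, had the most peaks. Its 7 MetDiff peaks covered 1453 exonic bases of a 7530-base span (chr2:219279366-219286895, plus strand), a length that 31 of the 3687 genes (0.841%) reached. From the 5′ to the 3′ end the folds were 9.18, 4.67, 5.67, 9.6, 3.64, 2.71 and 3.69. The highest were thus in the first peak, 51 bases from the annotated start, and in the fourth, at chr2:219284855-219285204. Both DNAJB2 summits lay inside exon blocks: position 219284890, with −log10 q of 4.13, in the fourth peak, and position 219286373, with 13.7, in the last.

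DNAJC5, the cysteine string protein of secretory vesicles, had 5 MetDiff peaks with 853 exonic bases and no summit. All began 35894 or more bases after the start of its 40886-base span. Their folds were 3.0, 3.3, 13.7, 5.3 and 1.37 from 5′ to 3′, and the third, at chr20:63932586-63932736, was over 2 times its neighbours. DNAJC11, which is bound to the cristae-organising complex of mitochondria, had 3 MetDiff peaks of 2 exon blocks each, with folds of 2.06, 3.0 and 6.21 and FDRs between 9.77e-09 and 1.82e-08. DNAJA3, a mitochondrial J-domain protein, had 3 with folds of 2.0, 1.75 and 3.29. Neither had a summit.

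DNAJB1, the main cytosolic partner of HSP70 and a heat shock gene, had a MetDiff peak with a fold of 6.0 (chr19:14518271-14518371, FDR 4.07e-04) and a summit with −log10 q of 22.6 at position 14518423, 52 bases away. DNAJC9, a histone chaperone, had a peak of 2 blocks with a fold of 4.0 and a summit with 8.90 at position 73247189, 33 bases from it and 66 bases from the annotated start. The spliceosome-associated DNAJC8 had a fold of 5.82 in the peak at its start, and DNAJB6, which keeps polyglutamine proteins from aggregating, a fold of 4.55 near its 3′ end. These last peaks stood without a summit.

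**Figure D1:**
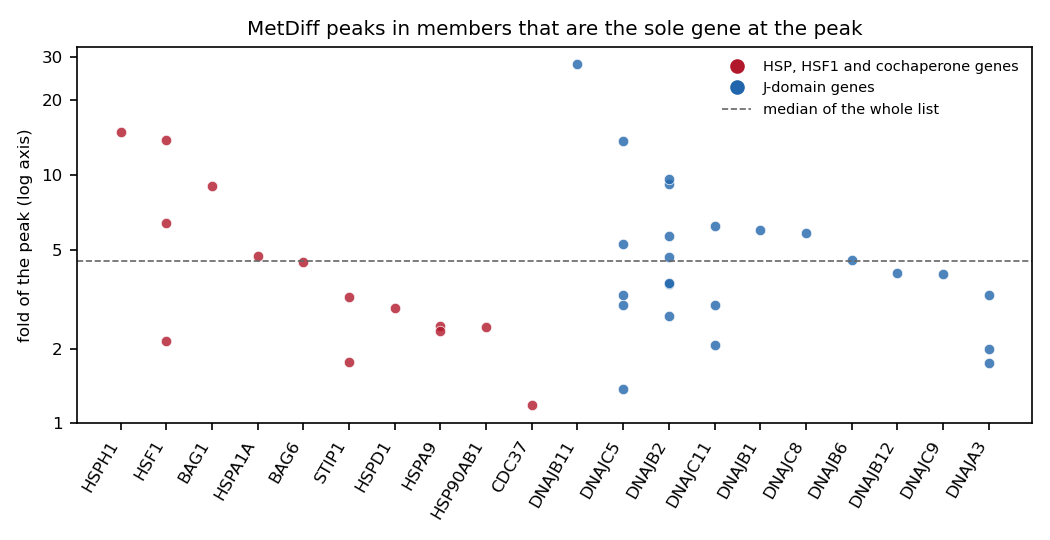
Fold of each MetDiff peak (vertical log axis) in the 20 genes that alone overlapped a peak, with HSP, HSF1 and cochaperone genes in red and J-domain genes in blue; each point is 1 peak and the dashed line is the median of the whole list, 4.5. DNAJB11 stands highest at 28.0, HSPH1, HSF1 and DNAJC5 have their highest peaks between 13.7 and 14.9, and CDC37 lies lowest at 1.19.

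Among the HSP70 genes the picture was uneven. HSPH1, the HSP110 protein that acts as a nucleotide exchange factor of HSP70, had a single MetDiff peak 653 bases from its annotated start (chr13:31161585-31161735, minus strand), whose fold was 14.9 at an FDR of 1.29e-05. A fold at least as high was listed for 369 peaks (3.85%). Its only summit, at position 31161761, was 26 bases from that peak and had a −log10 q of 22.9. HSPH1 thus stood above the median in both lists, which was a fold of 4.5 and a −log10 q of 13.7.

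HSPA8, the constitutive cytosolic HSP70 (chr11:123057489-123062462, minus strand), had 4 summits and no MetDiff peak. From 5′ to 3′ their −log10 q was 21.0 at position 123060808, 20.6 at 123059891, 10.7 at 123058571 and 28.6 at 123057891. They were spread from 0.333 to 0.919 of the way along the span. Only 158 of the 1644 protein-coding genes with a summit (9.61%) had at least 4.

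HSPA9, the mitochondrial HSP70, had MetDiff peaks with folds of 2.46 and 2.35 and a summit with −log10 q of 12.3, which lay between the blocks of the second, 81 bases from the nearer. HSPA1A, the stress-inducible HSP70, had a MetDiff peak with a fold of 4.71 (chr6:31817308-31817505, plus strand, FDR 3.63e-04), and its neighbour HSPA1B, which encodes the same protein, had none. These copies are nearly identical in sequence, so a read of one can be placed on the other, and the peak cannot be assigned to HSPA1A with certainty. HSPA4 and HSPA14 had no peak in either list.

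HSP90AB1, the constitutive cytosolic HSP90, held the strongest summit of the set. Its 5 summits had −log10 q of 9.14, 15.1, 75.3, 16.8 and 6.73 from the 5′ to the 3′ end, at positions 44249442, 44250238, 44251979, 44253066 and 44253428 of chromosome 6. The middle one stood far above the rest, and 23 of the 1644 genes with a summit (1.4%) reached it. It lay in the gap between the 2 blocks of the only MetDiff peak of the gene, 20 bases from the nearer, and that peak had a fold of 2.44. Its FDR was 0.0501, the highest among the counted peaks of the set. HSP90AB1 was therefore near the top of one list and reached only a fold that 93.3% of the genes with a MetDiff peak also reached in the other. HSP90AA1, the stress-inducible cytosolic HSP90, had neither kind of peak.

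The chaperonin genes HSPD1 (HSP60) and HSPE1 (HSP10), which form the folding chamber of mitochondria and its lid, lie head to head. HSPD1 had 3 summits with −log10 q of 16.4, 26.6 and 31.5 from 5′ to 3′, at positions 197497480, 197490383 and 197488581 of chromosome 2, and a MetDiff peak with a fold of 2.91 (FDR 1.58e-04), 60 bases from the middle summit. HSPE1 had no peak in either list; its span is shared with the readthrough gene HSPE1-MOB4, but it stayed without one when shared stretches were counted. The 104 bases between their annotated starts (chr2:197500275-197500378, RefSeq, GRCh38.p14, plus strand, which reads towards HSPE1) are shown because the same stretch lies upstream of a gene with peaks and of one without.
HSPD1-HSPE1: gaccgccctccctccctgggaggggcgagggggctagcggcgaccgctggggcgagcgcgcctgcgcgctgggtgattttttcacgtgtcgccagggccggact
Capitals were kept for the core of a heat shock element, GAANNTTC or TTCNNGAA on either strand, and these letters are not in this stretch. Only exact matches were searched, so their absence does not show that the stretch holds no heat shock element.

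Pseudogenes are a further limit for these genes, because reads of a processed copy and of its parent can be exchanged. RefSeq names 112 pseudogenes after 17 genes of the set, 28 of them after HSPE1, 22 after HSPD1 and 20 after HSPA8. Only pseudogenes named after a gene of the set were counted, so copies under other names would be missed. HSP90AB1 is not among the 17, which does not show that it has no such copies. Of the 112, 1 had a MetDiff peak and 0 a summit: HSPD1P4, with a fold of 7.67 against 2.91 in HSPD1. The snoRNA gene SNORA105C lies inside HSPD1P4.

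**Figure D2:**
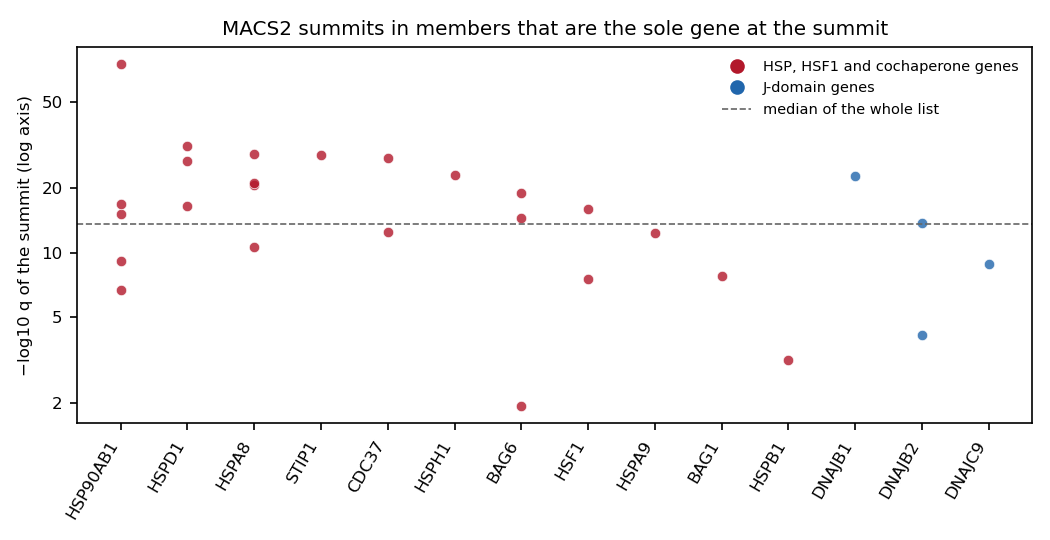
The −log10 q of each MACS2 summit (vertical log axis) in the 14 genes that alone overlapped a summit, with HSP, HSF1 and cochaperone genes in red and J-domain genes in blue; each point is 1 summit and the dashed line is the median of the whole list, 13.7. The HSP90AB1 summit at 75.3 stands apart, and the next are in HSPD1 (31.5), HSPA8 (28.6), STIP1 (28.6) and CDC37 (27.6).

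STIP1 and CDC37, which work with HSP90, each had a summit above the median and low folds. This does not hold for HSP90 cochaperones in general: of 11 others, counted below, 2 had a MetDiff peak and 3 a summit. STIP1, which bridges HSP70 and HSP90, had a summit with −log10 q of 28.6 at chromosome 11, position 64203383, between the 2 blocks of a MetDiff peak with a fold of 1.76. A second MetDiff peak of STIP1, 933 bases from its annotated start, had a fold of 3.23. CDC37, which brings kinases to HSP90, had summits with 27.6 at chromosome 19, position 10396239, and 12.5 at 10391695. Its only MetDiff peak, 63 bases from the second, had a fold of 1.19, and 9576 of the 9585 peaks (99.9%) had at least that fold.

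HSF1, the heat shock transcription factor, had 3 MetDiff peaks, with midpoints 0.762 to 0.984 of the way along its span on chromosome 8. The folds were 6.39 at 144309100 to 144309347, 2.14 at 144310020 to 144310119, and 13.8 at 144314224 to 144314472, which ended 248 bases before the annotated 3′ end. The FDR of the outer ones was 7.94e-10 and 8.13e-10. The summits of HSF1 lay beside the same outer peaks: 46 bases from the first, with −log10 q of 7.53, and inside the last, with 15.9.

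Of the BAG genes, BAG1 and BAG6 had peaks and BAG2, BAG3, BAG4 and BAG5 had none in either list. BAG1, a nucleotide exchange factor of HSP70, had a MetDiff peak of 350 bases over its annotated start (chr9:33264371-33264720), with a fold of 9.0 (FDR 5.13e-08) and a summit with −log10 q of 7.77 inside it. BAG6, which sorts mislocalised membrane proteins for degradation, had a MetDiff peak with a fold of 4.45 and, 90 bases away, a summit with 18.9. Its other summits, with 14.5 and 1.93, lay towards the opposite end of the gene, 5677 and 6401 bases from the nearest block of any gene. The small heat shock protein gene HSPB1 (HSP27) had a single summit with 3.16, a value that 97.0% of all summits reached, and no MetDiff peak.

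All 12 genes with both kinds of peak had a summit within 90 bases of one of their own exon blocks, at a median distance of 42.5 bases. Of all 1395 protein-coding genes with both, 1250 (89.6%) had one within 150 bases, and the median was 27 bases. In BAG1, DNAJB2 and HSF1 a summit lay inside a block. Counted by summit, 4 of the 28 lay inside a block (14.3%, beside 18.9% of the summits of all protein-coding genes) and 14 within 150 bases (50.0%, beside 66.6%). Both lists may have been made from the same libraries, so this closeness is not independent support for a site. The summits of HSPA8 and HSPB1, and those of HSP90AB1, HSPD1, BAG6 and CDC37 that stood away from the MetDiff peak, make up the other 14.

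**Figure D3:**
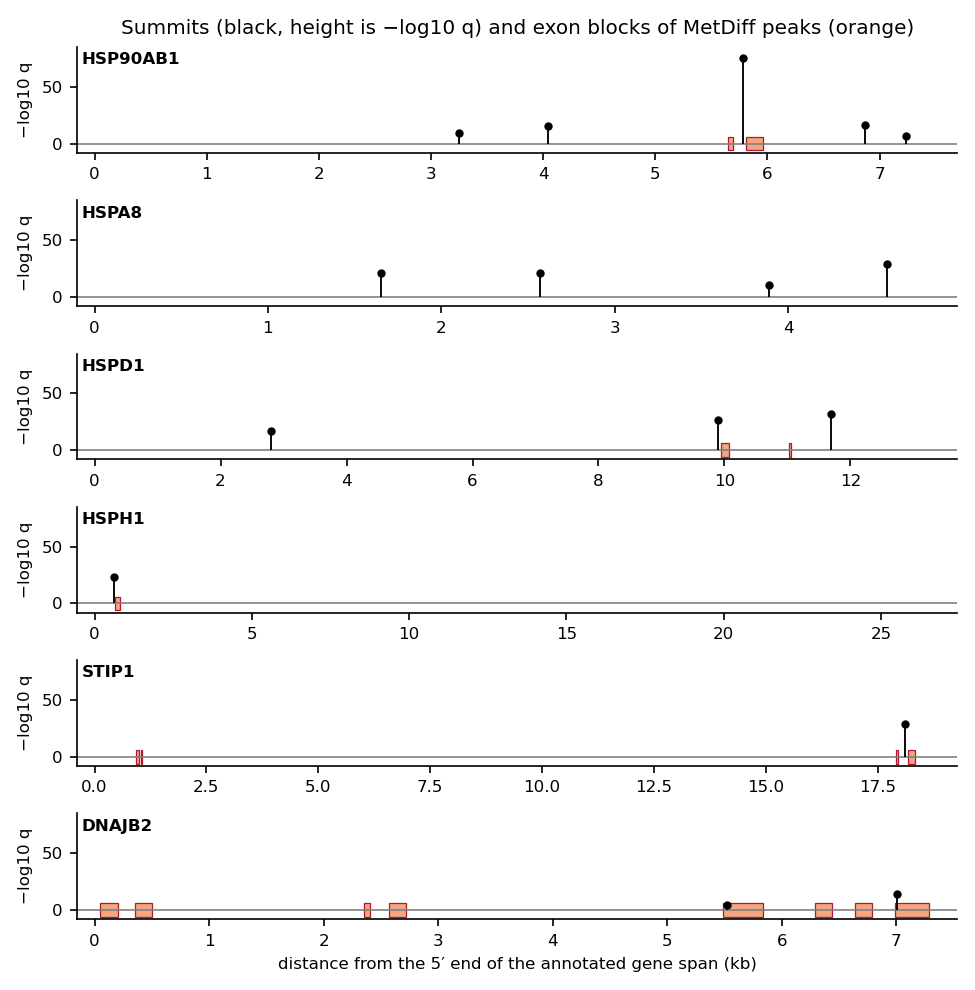
Summits (black stems, height is −log10 q) and exon blocks of MetDiff peaks (orange boxes, whose height has no meaning) along 6 genes, with the distance from the annotated 5′ end in kb on the horizontal axis and a scale of its own for each gene. The tall HSP90AB1 summit and the STIP1 summit stand between the blocks of a peak, the HSPH1 summit and peak stand together near the 5′ end, HSPA8 has stems without boxes, and DNAJB2 has 7 peaks.

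Fold and −log10 q ordered these 12 genes differently. HSPH1 (14.9), HSF1 (13.8), DNAJB2 (9.6) and BAG1 (9.0) had the highest folds, with strongest summits of 22.9, 15.9, 13.7 and 7.77. HSP90AB1 (75.3), HSPD1 (31.5), STIP1 (28.6) and CDC37 (27.6) had the strongest summits, with highest folds of 2.44, 2.91, 3.23 and 1.19. A −log10 q grows with the number of reads as well as with the fold, and the read counts were not analysed here. The highest values of a gene can belong to different sites. For example, the strongest summits of CDC37 and HSPD1 lay 4607 and 644 bases from the nearest exon block. How both values order the other protein-coding genes with both was not tested, so the difference is not shown to be particular to this set.

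**Figure D4:**
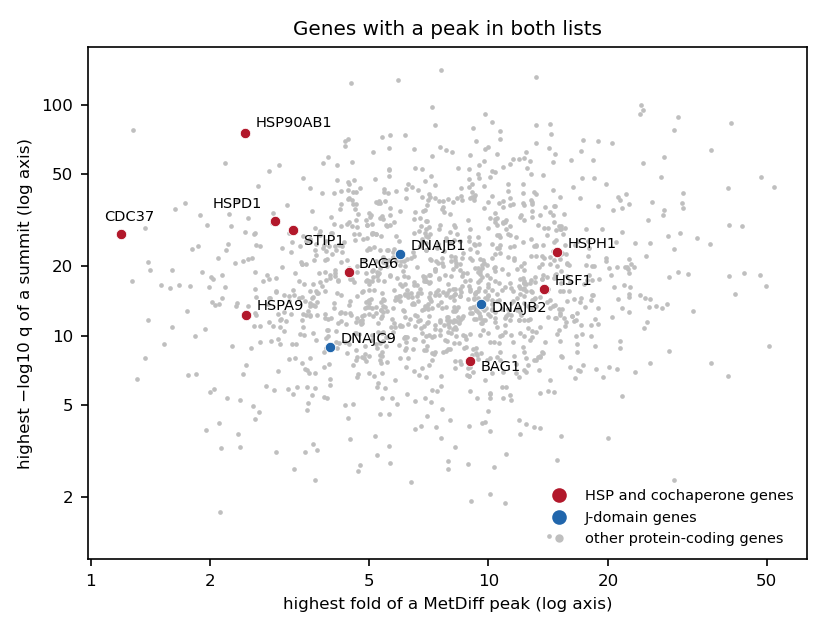
Highest fold of a MetDiff peak (horizontal log axis) against highest −log10 q of a summit (vertical log axis) for the 1395 protein-coding genes with both, one point each, with the 12 genes of the set named. HSP90AB1, HSPD1, STIP1 and CDC37 lie at the upper left and HSPH1 and HSF1 further right.

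Over the 38 MetDiff peaks of the set the median fold was 3.85, in a range of 1.19 to 28.0, beside a median of 4.46 over the 7990 peaks of all protein-coding genes. It was 3.07 for the 14 peaks of HSP, HSF1 and cochaperone genes and 4.01 for the 24 of J-domain genes. The median −log10 q over the 28 summits was 15.5, beside 13.9 over the 3032 summits of all protein-coding genes. The set's medians thus lay near those of the lists, and no difference was tested. Peaks of several exon blocks made up 13 of 38 (34.2%, beside 33.8%).

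Along the gene, peaks lay mostly in the 3′ part of the span, which was cut into 3 equal parts. In the 3′ part lay 25 of the 38 MetDiff peaks (65.8%, beside 49.1% for all protein-coding genes), in the 5′ part 11 (28.9%, beside 29.5%) and in the middle part 2 (5.26%, beside 21.4%). DNAJB2 and DNAJC5 alone gave 12 of the 38, and without them 61.5% of 26 lay in the 3′ part. Counted by gene, 13 of 20 had a peak in the 3′ part (65.0%), beside 59.7% of all protein-coding genes with a peak. Of the 28 summits, 17 lay in the 3′ part (60.7%, beside 48.9%). At the 5′ end, 6 peaks began within 200 bases of the annotated start (15.8%, beside 11.9%), those of BAG1, DNAJA3, DNAJB11, DNAJB2, DNAJC8 and DNAJC9. At the 3′ end, 0 of the 38 ended within 200 bases of the annotated end, beside 3.18% for all protein-coding genes. Spans include introns and reach to the outermost annotated transcript, which for DNAJB1 lies 31120 bases before the start in the promoter table, so a part of a span is not the same part of an mRNA.

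**Figure D5:**
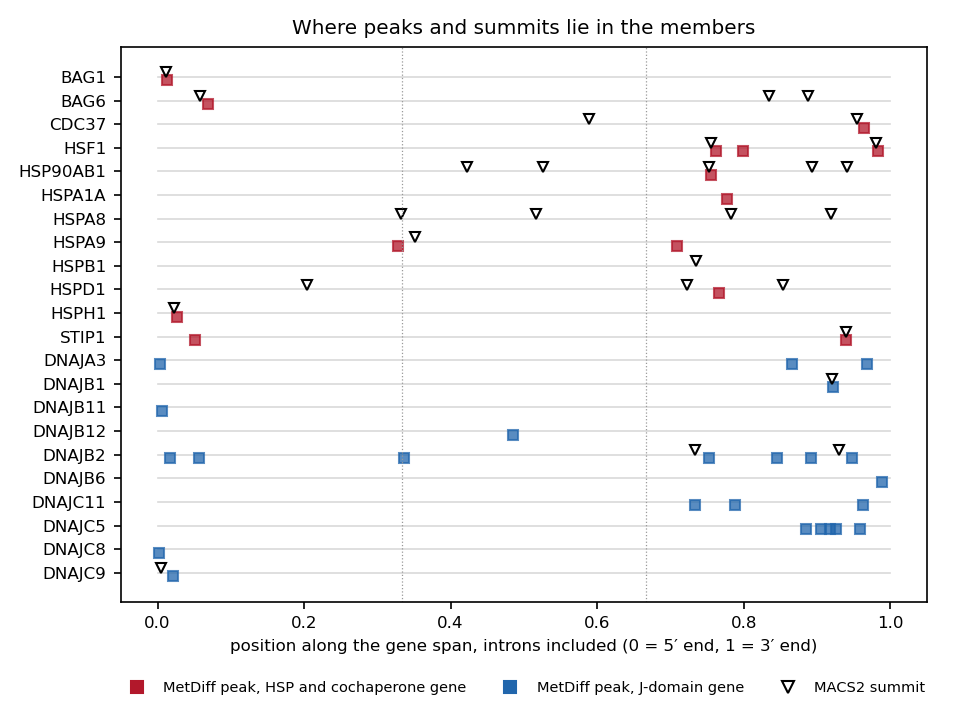
Position of the midpoint of each MetDiff peak (squares, red for HSP, HSF1 and cochaperone genes and blue for J-domain genes) and of each summit (open triangles) along the gene span of the 22 genes with either, from the 5′ end (0) to the 3′ end (1), introns included; dotted lines mark 3 equal parts. Most marks stand in the right part, BAG1, DNAJB11, DNAJC8, DNAJC9 and HSPH1 have theirs at the left end, and all of DNAJC5 lies in the right part.

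Some peaks fell where genes overlap and were left out of the counts above. In all, 49 MetDiff peaks overlapped a span of the set, 11 more than were counted, while all 28 summits were counted. TRAP1, the mitochondrial HSP90, had 2 peaks on its own strand, with folds of 1.55 and 1.93, and shares its 3′ part with DNASE1 on the other strand. There the list also held peaks on the DNASE1 strand over the same exonic bases, with folds of 1.49 and 2.58. DNAJC11 with THAP3 (folds of 4.59 and 3.63, with 127 exonic bases in common) and DNAJB1 with TECR (4.53 and 3.66, with 60 in common) made the same kind of pair. In the whole list 415 peaks (4.33%) shared exonic bases with a peak of the other strand. The sources used here do not give whether the counting used strand, so the gene behind these peaks is uncertain. DNAJC4 had a peak with a fold of 8.53 near its start that it shares with LOC124902687. Counting every overlap, 23 genes had a MetDiff peak (34.3%, beside 21.8% of all protein-coding genes) and 42 had neither kind (62.7%, beside 76.9%).

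Of the 45 J-domain genes, 35 had neither kind of peak (77.8%), beside 80.4% of all protein-coding genes, and 33 had neither by the wider count (73.3%, beside 76.9%). Absence was thus about as common as among all genes. The 33 were DNAJA1, DNAJA2 and DNAJA4, DNAJB4, DNAJB5, DNAJB7, DNAJB8, DNAJB9, DNAJB13 and DNAJB14, and 23 DNAJC genes, among them the ribosome-associated DNAJC2, the auxilin DNAJC6, the HSP70 and HSP90 cochaperone DNAJC7, the endosomal DNAJC13 and the mitochondrial import factors DNAJC15 and DNAJC19. Of the genes assigned here to a compartment, 4 of 9 mitochondrial genes (HSPA9, HSPD1, DNAJA3 and DNAJC11) had a MetDiff peak (44.4%). So did 2 of 7 genes of the endoplasmic reticulum (DNAJB11 and DNAJB12, 28.6%). The share was 27.5% in the other 51 genes of the set and 18.4% in all protein-coding genes. Summits were found in 2 of the mitochondrial (22.2%) and 0 of the reticulum genes, beside 23.5% of the other 51 and 8.2% of all. With 9 and 7 genes these shares are coarse, and they were not tested. The assignment may have left out genes of either compartment, which would then be among the other 51. Absence from a list does not show that an mRNA was not bound.

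Other genes of the chaperone network were also counted. Of 42 (4 heat shock factor genes, 7 HSP70 genes, 9 small heat shock proteins, 11 HSP90 cochaperones and 11 HSP70 cochaperones), 4 had a MetDiff peak (9.52%, beside 18.4% of all protein-coding genes) and 5 a summit (11.9%, beside 8.2%). Both kinds were found in 3 of the 42, beside 6.96% of all protein-coding genes. The MetDiff share lay below that of all genes and the summit share above it, and neither difference was tested. UNC45A, a myosin chaperone that binds HSP90, had 8 MetDiff peaks, the highest at a fold of 8.19, and a summit with −log10 q of 25.9. GAK, the auxilin relative with a J-domain, had 4, the highest at 10.1, and 2 summits, the stronger with 12.1, and ST13, which binds HSP70, a fold of 4.72 and a summit with 10.1. SUGT1 had a MetDiff peak with a fold of 4.0, and PTGES3 (p23) and AHSA1, both cochaperones of HSP90, had summits with 16.0 and 9.69. STUB1, the ubiquitin ligase of HSP70, had 5 MetDiff peaks and 2 summits, each in a stretch shared with another gene. The other heat shock factor, HSP70 and small heat shock protein genes had 0 peaks.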

How the data were processed

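STAR 2.7.1, MACS2 2.2.5, bedtools and GRCh38 are named, without role or order, per the submitters' processing notes. The sources used here do not give which libraries the peaks were called on, or whether these were pooled. MACS2 values, as deposited, were read as −log10 q per summit. The deposited MetDiff list holds a p-value, a log10 FDR and a ratio, read as the fold, with no header to name them.

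Peaks were named by overlap with RefSeq gene spans (GRCh38.p14) in Python 3.11.15, and the naming was tested on simulated data. Strand came from the RefSeq promoter table (60 of 67 genes) or, as for HSF1, from the peaks; positions along the span of all genes' summits use the 2974 of 3032 with a known strand. That table's overlapping windows of opposite strands were reverse complements in 2108 of 2108 cases. The genes, lists and compartments were chosen with earlier results of these data known. No test was planned or run, because no value belongs to a library. Alternatives were FDR, fold and q thresholds, the naming rule and the distance that counts as shared. Genes with any peak are named with values; those with a peak in both lists and those highest in either are given in full.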

Additional observations from a re-analysis of the deposited data

How the results depend on the processing

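Of 34 alternatives, 33 left their result within 1.5 times (counts) or within the 95% binomial interval of the reported median or share. The alternatives reuse most of the same peaks. The intervals are wide, 49.9% to 78.8% for the 3′ share, and count peaks of the same gene as separate. Staying within these limits is therefore no independent support. The exception was the share of summits inside a MetDiff exon block, 14.3% as reported, which was 50.0% when a summit within 150 bases of a block was counted. The number of genes with a MetDiff peak ran from 16 (FDR under 0.001, 23.9%) to 23 (every overlapping gene counted, 34.3%), beside 13.9% and 21.8% of all protein-coding genes. The number with a summit ran from 11 (−log10 q of at least 10, 16.4%, beside 6.09%) to 14 (20.9%). Beside the 14 stood 8.2% of all protein-coding genes as reported and 9.4% with every overlapping gene counted. The share of peaks in the 3′ part of the span ran from 61.5% (without DNAJB2 and DNAJC5, an alternative chosen after seeing the data) to 69.4%. With FDR under 0.01 HSP90AB1 lost its only peak. With a fold of at least 2, 34 of the 38 peaks remained: CDC37 lost its only peak, while DNAJA3, DNAJC5 and STIP1 lost a peak and kept others. No paired analysis was possible because the peak lists hold no column of a library, so no replicate could be left out or paired either. Unknown depth limits every absence from a list.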

Other observations

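The core letters of a heat shock element (GAANNTTC or TTCNNGAA, each its own reverse complement, matches of either allowed to overlap) were present in the promoter windows of 10 of the 60 genes of the set with a window (16.7%), beside 11.4% of 15843 protein-coding windows of 300 bases. They were present in 5 of the 21 with a peak or summit (HSPA1A, HSPA8, HSPA9, HSPB1 and DNAJB6) and in 5 of the 39 with neither (BAG2, DNAJA1, DNAJB7, DNAJC15 and HSPA1B). A match is a description of the letters and not a bound site, and a window without an exact match may still hold an element.

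The 22 genes with a peak or summit had a median span of 17173 bases, and the 45 with neither one of 29323 bases, beside 24093 over all protein-coding genes. The extremes overlapped: spans ran from 1620 to 80436 bases in the first and from 2517 to 247183 in the second.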
